A study of Mus musculus with 9 samples.

Results

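The 8 genes described here encode the enzymes that make serine from glucose and those that pass its carbon on to folate: Phgdh, Psat1, Psph, Shmt1, Shmt2, Mthfd1, Mthfd2 and Mthfd1l. They were listed by symbol as members of the pathway, out of the 26602 genes that had a count in the midbrain of mice with and without DJ-1 (Park7), a gene whose loss causes a recessive early-onset form of Parkinson's disease. The libraries came from midbrain tissue that included the substantia nigra. The tissue was taken at 3–4 months of age from 4 wild-type (DJ-1+/+, n = 4) and 5 knockout (DJ-1-/-, n = 5) mice. The knockout mice carried a targeted DJ-1 allele in every cell of the body and were backcrossed to C57BL/6, no agent was given to either genotype, and the sex of the mice was not stated in the labels. RNA was read by 3′ tag sequencing, in which each transcript gives a fragment near its 3′ end and molecular identifiers (UMIs) remove copies made by PCR. A count is thus meant as a number of RNA molecules caught and does not grow with transcript length. In these files the top of the scale was compressed, so high counts need not be in proportion to molecules.

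Serine is built in the cytosol from the glycolytic intermediate 3-phosphoglycerate. PHGDH oxidises it, PSAT1 transfers an amino group to the product, and PSPH removes the phosphate to release serine. Serine hydroxymethyltransferase, SHMT1 in the cytosol and SHMT2 in mitochondria, then splits serine into glycine and a carbon unit carried by tetrahydrofolate, and the MTHFD enzymes oxidise, reduce or release that unit for the synthesis of purines, thymidylate and methionine. In the brain, PHGDH is mainly an astrocyte enzyme, and the serine that astrocytes make feeds the synthesis of D-serine and glycine, ligands of the NMDA receptor. Several genes of the set, among them Phgdh, Psat1, Shmt2 and Mthfd2, are known targets of the stress-induced transcription factor ATF4.

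The promoters of the first serine synthesis enzymes and of Mthfd2 are shown because the pathway is known to be driven together at transcription, and they give a letter sequence that most of the set holds. Each window ran from 250 bases before to 50 bases after the transcription start of the RefSeq gene on GRCm38.p6, 5′ to 3′ on the strand of the gene, and capitals mark CCAAT, the CCAAT box, or its reverse complement ATTGG. The windows lay at chr3:98339920-98340219 for Phgdh, chr19:15925010-15925309 for the upstream of both Psat1 starts and chr6:83317555-83317854 for Mthfd2, all on the minus strand.
Phgdh: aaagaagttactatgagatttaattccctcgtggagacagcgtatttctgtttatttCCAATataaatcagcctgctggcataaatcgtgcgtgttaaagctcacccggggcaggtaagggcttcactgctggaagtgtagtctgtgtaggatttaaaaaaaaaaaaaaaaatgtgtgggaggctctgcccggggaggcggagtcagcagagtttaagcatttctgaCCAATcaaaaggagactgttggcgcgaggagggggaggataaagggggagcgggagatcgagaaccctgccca
Psat1: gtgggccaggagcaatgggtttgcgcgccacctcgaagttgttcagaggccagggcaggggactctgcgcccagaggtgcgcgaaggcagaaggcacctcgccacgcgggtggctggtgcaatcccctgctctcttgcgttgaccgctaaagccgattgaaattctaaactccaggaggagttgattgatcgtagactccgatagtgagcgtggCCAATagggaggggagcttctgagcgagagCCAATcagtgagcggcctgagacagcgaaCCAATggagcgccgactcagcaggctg
Mthfd2: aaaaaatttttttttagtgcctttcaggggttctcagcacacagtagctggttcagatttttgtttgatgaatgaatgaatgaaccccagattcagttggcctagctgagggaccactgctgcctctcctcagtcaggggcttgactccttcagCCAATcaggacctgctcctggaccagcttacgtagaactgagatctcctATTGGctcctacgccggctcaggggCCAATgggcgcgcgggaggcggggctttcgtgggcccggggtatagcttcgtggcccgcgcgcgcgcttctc
Phgdh held CCAAT at 193 and 23 bases before the start, Psat1 held it 36 and 6 bases before and 24 bases after the start, and Mthfd2 held it 96 and 22 bases before the start and the reverse complement 47 bases before. The 8 genes had 9 promoter windows, since Psat1 has both an upstream and a downstream start. On either strand, CCAAT was present in 6 of the 9 windows (those of Phgdh, Psph, Shmt1, Mthfd1 and Mthfd2 and the upstream one of Psat1). It was present in 37.4% of all 32851 promoters of this length. The GC box GGGCGG was present in 5 of the 9 windows, for Psat1 only in the downstream one, which is not shown, and in 35.7% of all promoters. TGATGNAAN, a form of the element bound by ATF4 with C/EBP factors, was in none of the 9 promoter windows of the 8 genes and in 3.95% of all promoters. These are matches of letters only.

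The 9 libraries held 841974 to 1098125 UMIs, and each DJ-1-/- library (967751 or more) was deeper than each DJ-1+/+ library (886085 or fewer), so depth and genotype cannot be told apart except through scaling. Levels are therefore given as counts scaled to a library total of 1000000 UMIs (cpm), where 3 counts, the limit that a count of 0 allows, correspond to 2.73 to 3.56 cpm. Park7 itself had 132, 105, 113 and 118 counts in the DJ-1+/+ libraries and 14 to 29 in the DJ-1-/- libraries, in accord with the labels. DJ-1+/+ replicate 1 stood apart by cerebellar neuron markers (mean log2(cpm + 1) of 10 markers 7.07, against 4.11 to 4.61 in the other libraries) and DJ-1+/+ replicate 4 by choroid plexus markers (5.80 over 12 markers, against 2.58 to 4.16). The dopaminergic neuron markers were at a mean log2(cpm + 1) of 4.83 to 5.95 in DJ-1+/+ and 5.50 to 6.13 in DJ-1-/- tissue. By edgeR at an unadjusted p under 0.05, 5 of 12 dopaminergic markers were higher in DJ-1-/- tissue (Th by a log2 fold change of 0.61, Slc6a3 by 0.86). At the same limit, 7 of 12 choroid plexus and 5 of 10 cerebellar markers were lower. Of all tested genes, 1.57% were called higher and 1.26% lower, and 0 of these markers had an adjusted p under 0.05. Exact permutation tests of the mean marker level gave p of 0.111 (dopaminergic), 0.238 (choroid plexus) and 0.0952 (cerebellar). DJ-1+/+ replicates 1 and 4 and also replicate 5 of DJ-1-/- had 0 to 2 counts of Xist and 113 to 152 of the Y-linked Ddx3y, while the other 6 libraries had 146 to 193 and 0 to 4. The edgeR comparisons were therefore also made without DJ-1+/+ replicates 1 and 4 and in those 6 libraries. What part these differences between libraries had in the results on the enzymes was not tested beyond these fits.

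None of the 8 genes passed a test for a difference between the genotypes. Of 7 genes with a level above the counting limit, 5 had a point estimate above 0 and 2 below 0 in DJ-1-/- midbrain, with a median log2 fold change of 0.03 beside 0.01 over all genes. In edgeR's quasi-likelihood test over 18127 genes, 0 of the 8 had an unadjusted p under 0.05, where 2.83% of all tested genes did (1.57% higher and 1.26% lower in DJ-1-/-), and 0 had a Benjamini-Hochberg adjusted p under 0.05, where 0.00552% did, a share made up of Park7 alone. DESeq2 also called 0 of them at an unadjusted p under 0.05. No gene of the set had levels that did not overlap between genotypes (1.25% of all genes), and 0 of 8 had p under 0.05 in the exact two-sided permutation test of mean cpm over all 126 ways to assign the libraries to the genotypes (3.67% of all genes), whose smallest possible p is 0.0159. Without DJ-1+/+ replicates 1 and 4 together, the log2 fold changes were -0.016 for Phgdh, -0.042 for Psat1, 0.19 for Psph, 0.41 for Shmt2, 0.11 for Mthfd1, 0.18 for Mthfd2 and -0.37 for Mthfd1l, and the smallest unadjusted edgeR p was 0.107. In bulk tissue, fewer cells of a type and less RNA per cell cannot be told apart.

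**Figure D1:**
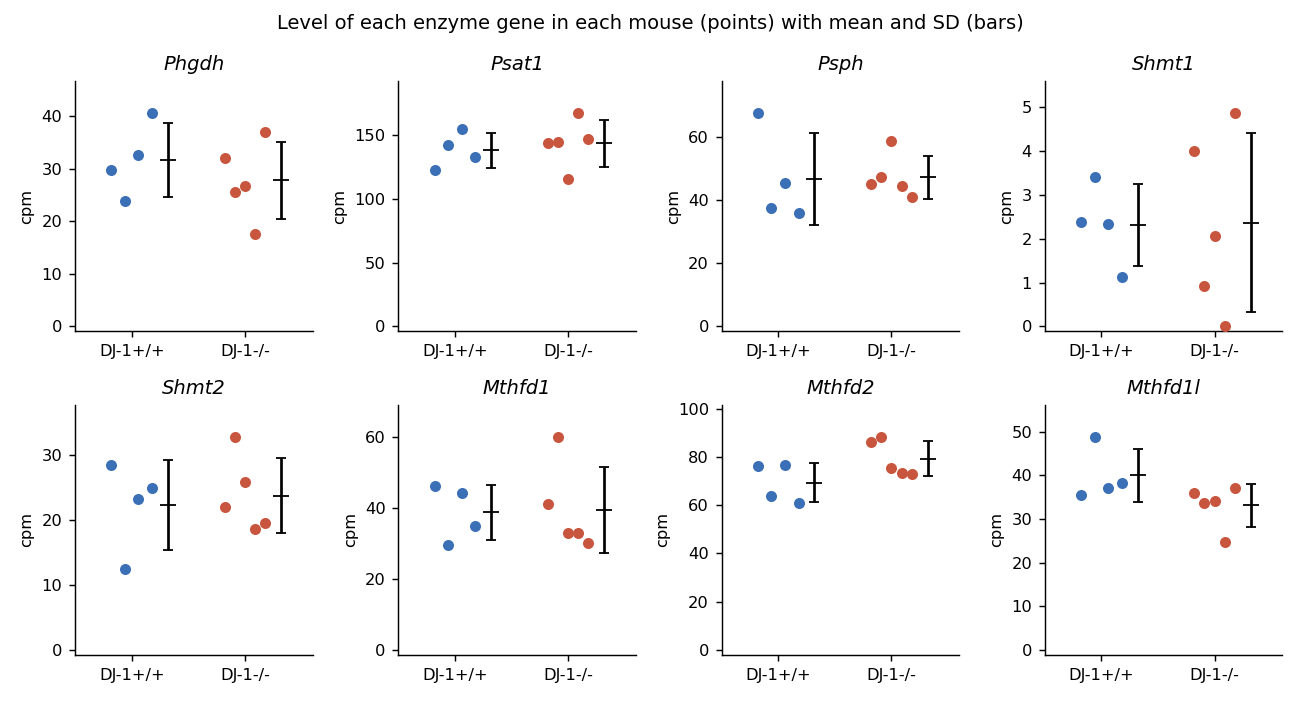
Level of the 8 genes in counts scaled to 1000000 UMIs a library (cpm, y axes from 0, each with its own scale) in each of 4 DJ-1+/+ (blue) and 5 DJ-1-/- (red) midbrain libraries, with the mean and SD of each genotype as black bars. The points of both genotypes overlap for every gene shown, and Psat1 reached 116 to 167 cpm while Shmt1 stayed below 5 cpm.

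Phgdh, the NAD-dependent dehydrogenase that commits 3-phosphoglycerate to serine, lies on chromosome 3 (GRCm38, 98313170 to 98339990, minus strand). It was measured at 29.7, 23.9, 32.6 and 40.6 cpm in DJ-1+/+ and at 32.03, 25.5, 26.8, 17.6 and 37.0 cpm in DJ-1-/- midbrain. The DJ-1-/- values reached from below the lowest to near the highest DJ-1+/+ value, with replicate 4 the lowest of all 9. The means were 31.7 ± 6.97 cpm (SD, n = 4) and 27.8 ± 7.32 cpm (SD, n = 5). The log2 fold change was -0.19 (SE 0.23), a fold of 0.626 to 1.23 at 95% confidence, with an unadjusted p of 0.428 and an adjusted p of 1.0 in edgeR, and an exact permutation p of 0.460.

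The count of Phgdh is limited by similar sequences elsewhere. The last 500 bases of its transcript matched 18 processed pseudogenes (intronless copies of the mRNA) at 91.1% to 99.2% identity over 367 to 399 bases. The same bases matched Gm45751, a locus annotated as still to be tested by experiment (TEC), at 93.8% over all 500 bases, and the antisense of the lincRNA Gm44983 at 92.6% over 121 bases, and these had 3 and 15 counts in all. Of the 18 pseudogenes, only 1 had a count in any library, a total of 1 against 251 for Phgdh. How reads that match several places were counted is not stated in the sources used here, its part in the count of Phgdh was not tested, and the level of Phgdh beside the other enzymes is uncertain for that reason.

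Psat1, the phosphoserine aminotransferase of the next step, lies on chromosome 19 (15904678 to 15947337, minus strand). It was the most abundant of the set, at 122, 142, 155 and 133 cpm in DJ-1+/+ and 144, 145, 116, 167 and 147 cpm in DJ-1-/- tissue. The highest and the lowest value of all libraries were both DJ-1-/- (replicates 4 and 3). The means of 138 ± 13.7 cpm (SD, n = 4) and 144 ± 18.5 cpm (SD, n = 5) gave a log2 fold change of 0.06 (SE 0.10; unadjusted p = 0.565, adjusted p = 1.0 in edgeR), and the 95% interval of the fold was narrow, 0.899 to 1.21. Its estimate turned below 0 without DJ-1+/+ replicates 1 and 4, so that no direction can be read from it. The last 500 bases of the Psat1 transcript matched the processed pseudogene Gm12611 at 90.1% identity over an alignment of 513 positions. The part of that match in the count of Psat1 was not tested.

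Psph, the phosphatase of the last step, lies on chromosome 5 (129765558 to 129787449, minus strand). Its levels were 67.7, 37.5, 45.4 and 36.1 cpm in DJ-1+/+ and 45.04, 47.4, 58.8, 44.4 and 40.9 cpm in DJ-1-/- libraries. The highest value was that of DJ-1+/+ replicate 1, the library with cerebellar markers. With means of 46.7 ± 14.6 cpm (SD, n = 4) and 47.3 ± 6.82 cpm (SD, n = 5), the log2 fold change was 0.02 (SE 0.19) over all libraries, with a fold of 0.769 to 1.34 at 95% confidence and an unadjusted p of 0.911 in edgeR. Without DJ-1+/+ replicate 1 it was 0.25 (SE 0.17, unadjusted p = 0.160), and without DJ-1+/+ replicate 4 it was -0.085.

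Together the serine synthesis steps were uneven in counts, with the limit on the count of Phgdh given above. Summed counts of Psat1 were 4.35 times those of Phgdh in DJ-1+/+ and 5.16 times in DJ-1-/- libraries, with ratios in individual libraries of 3.28 to 5.95 and 3.97 to 9.53. The highest ratio came from DJ-1-/- replicate 4, which had both the most Psat1 and the least Phgdh. The ratio of Psat1 to Psph was 2.98 and 3.05 in the genotypes, and the library ranges overlapped (1.81 to 3.79 and 1.96 to 3.77).

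Shmt1, the cytosolic serine hydroxymethyltransferase, lies on chromosome 11 (60788104 to 60811718, minus strand) and was at the limit of what these libraries can show. It had 2, 3, 2 and 1 counts in DJ-1+/+ and 4, 1, 2, 0 and 5 counts in DJ-1-/- libraries, and the mean of each genotype was below the level of 3 counts. No fold is given for it, since a difference was not detectable at this depth. The last 184 bases of its transcript are shared, on the other strand, with Smcr8, which had 311 counts in all, and the sources used here do not state whether counting used the strand.

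Shmt2, the mitochondrial isoform, lies on chromosome 10 (127517123 to 127522444, minus strand) and its 3′ end overlaps Ndufa4l2 on the other strand, which had 17 counts in all. It was measured at 28.5, 12.5, 23.3 and 24.8 cpm in DJ-1+/+ and at 22.02, 32.8, 25.8, 18.6 and 19.5 cpm in DJ-1-/- libraries. DJ-1+/+ replicate 2 was the lowest and DJ-1-/- replicate 2 the highest, and the other 7 lay between them in both genotypes. The means of 22.3 ± 6.88 cpm (SD, n = 4) and 23.7 ± 5.78 cpm (SD, n = 5) gave a log2 fold change of 0.10 (SE 0.26; unadjusted p = 0.714 in edgeR), which ran from -0.11 to 0.24 as each library was left out. The 95% interval of the fold, 0.732 to 1.56, was the widest upward among the 7 genes. Shmt2 exceeded Shmt1 in 9 of 9 libraries, and its mean was 6.43 times the level of 3 counts a library in DJ-1+/+ and 7.99 times that level in DJ-1-/- midbrain.

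Mthfd1, the cytosolic trifunctional enzyme that interconverts methylene-, methenyl- and formyl-tetrahydrofolate, lies on chromosome 12 (76255298 to 76319803, plus strand). It had 46.3, 29.5, 44.2 and 34.99 cpm in DJ-1+/+ and 41.0, 60.1, 33.0, 33.1 and 30.2 cpm in DJ-1-/- libraries. DJ-1-/- replicate 2 was above all others, and the remaining DJ-1-/- values lay inside the DJ-1+/+ range. The log2 fold change was 0.03 (SE 0.22; means 38.8 ± 7.87 cpm, n = 4, and 39.5 ± 12.2 cpm, n = 5; unadjusted p = 0.875 in edgeR), with a fold of 0.743 to 1.41 at 95% confidence, and became -0.17 without that library.

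Mthfd2, the mitochondrial dehydrogenase and cyclohydrolase that is high in embryonic and proliferating cells, lies on chromosome 6 (83305691 to 83325908, minus strand). It had 76.0, 63.6, 76.8 and 60.9 cpm in DJ-1+/+ and 86.1, 88.3, 75.3, 73.4 and 73.1 cpm in DJ-1-/- libraries. DJ-1-/- replicates 1 and 2 were above every DJ-1+/+ library, while the other 3 lay within the DJ-1+/+ range. The means were 69.3 ± 8.22 cpm (SD, n = 4) and 79.2 ± 7.37 cpm (SD, n = 5), with a log2 fold change of 0.20 (SE 0.11) and a fold of 0.968 to 1.36 at 95% confidence. It had the smallest edgeR p of the set, 0.107 unadjusted and 1.0 adjusted, with an exact permutation p of 0.159. The estimate stayed between 0.14 and 0.25 as each library was left out.

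Mthfd1l, the mitochondrial formyl-tetrahydrofolate synthetase that releases formate, lies on chromosome 10 (3973118 to 4167081, plus strand). It had 35.6, 48.9, 37.2 and 38.4 cpm in DJ-1+/+ and 36.0, 33.7, 34.04, 24.8 and 37.0 cpm in DJ-1-/- libraries. DJ-1+/+ replicate 2 was the highest and DJ-1-/- replicate 4 the lowest, and the remaining libraries of the genotypes met between 33.7 and 38.4 cpm. The means were 40.0 ± 6.002 cpm (SD, n = 4) and 33.1 ± 4.85 cpm (SD, n = 5), with a log2 fold change of -0.27 (SE 0.17), a fold of 0.642 to 1.07 at 95% confidence and an unadjusted p of 0.138 in edgeR (adjusted p = 1.0). Its exact permutation p of 0.0635 was the smallest of the set. It fell to 0.0357, unadjusted for the 8 genes tested, when DJ-1+/+ replicate 1 was left out. That is the smallest p the test allows for the remaining libraries. Among them the lowest DJ-1+/+ value (37.2 cpm) was just above the highest DJ-1-/- value (37.0 cpm).

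**Figure D2:**
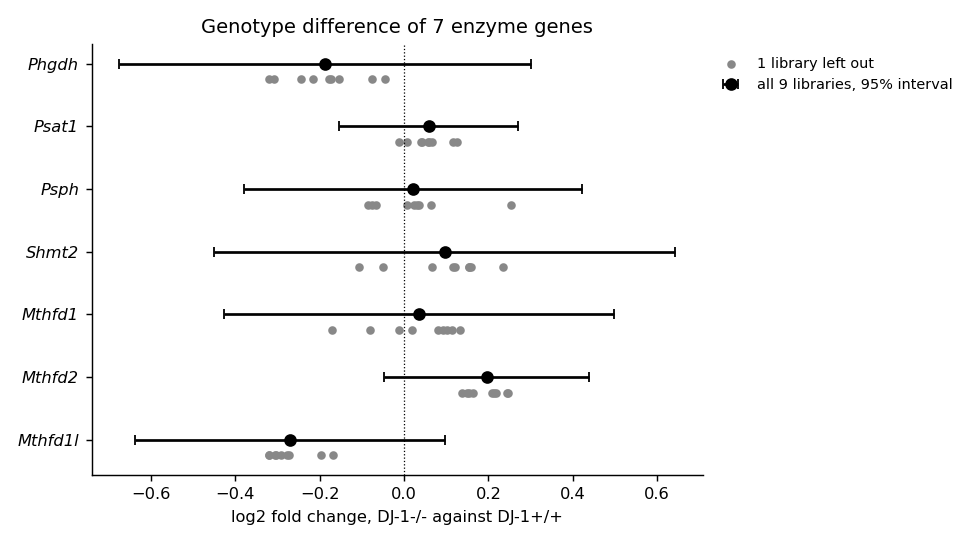
Log2 fold change of DJ-1-/- against DJ-1+/+ midbrain for the 7 genes above the counting limit (black points, with 95% intervals from edgeR over 9 libraries) and the same value with each library left out in turn (grey points). Every interval crosses 0, and the grey points of Psat1, Psph, Shmt2 and Mthfd1 lie on both sides of it while those of Phgdh, Mthfd2 and Mthfd1l stay on one side.

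The mitochondrial and cytosolic MTHFD enzymes were compared within libraries, where depth cancels. Mthfd2 counts summed to 1.79 times those of Mthfd1 in DJ-1+/+ and 1.99 times in DJ-1-/- midbrain, and the library ratios overlapped, at 1.64 to 2.15 and 1.47 to 2.42. Mthfd2l, the paralog of Mthfd2 that is expressed in adult tissues, had 25.96 to 45.1 cpm in DJ-1+/+ and 26.3 to 49.0 cpm in DJ-1-/- libraries (log2 fold change -0.04, SE 0.22, unadjusted p = 0.846 in edgeR). Mthfd2 exceeded it 1.88 times in DJ-1+/+ (1.6 to 2.35) and 2.21 times in DJ-1-/- libraries (1.76 to 2.78). Mthfd1l summed to 1.04 times Mthfd1 in DJ-1+/+ and 0.832 times in DJ-1-/- midbrain, and the ratio ranged from 0.769 to 1.65 and from 0.561 to 1.23. No test was made of these ratios.

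Over all 9 libraries the order of the levels was Psat1 (mean 141 cpm, at the 91.9th percentile of the tested genes), Mthfd2 (74.8), Psph (47.0), Mthfd1 (39.2), Mthfd1l (36.2), Phgdh (29.5), Shmt2 (23.1) and Shmt1 (2.34 cpm). In counts, the first and the last step of this order were separate: the ranges of Psat1 and Mthfd2 did not overlap, nor did those of Shmt2 and Shmt1. The places of Shmt1 and Shmt2 carry the limit of genes that overlap them on the other strand. That of Phgdh carries the limit of its pseudogenes, and the effect of either was not tested. Mthfd2 exceeded Psph in 9 of 9 libraries although their ranges overlapped, and Psph exceeded Mthfd1 in 8 of 9. The neighbours from Mthfd1 to Shmt2 did not separate beyond their spread, with the higher of each pair ahead in 5 to 7 of 9 libraries. Psat1 alone supplied a median of 36.0% of the counts of the 8 genes, Mthfd2 18.8% and Phgdh 7.27%. The highest mean count of any gene was 1194 and only 359 genes averaged over 200 counts, so the top of the scale was compressed in these files and differences in level between genes may be understated; this was not tested.

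The spread between mice was set beside that of Poisson counting, as a description only, since the compressed counts need not follow it. Of the 16 pairs of gene and genotype, the coefficient of variation (CV) of cpm was below that of Poisson counting at the same mean count in 6, up to 1.5 times it in 7, and above that in 3. The 3 were Psph in DJ-1+/+ (31.3% against 15.8%), Mthfd1 in DJ-1-/- (30.9% against 15.7%) and Psat1 in DJ-1-/- midbrain (12.9% against 8.29%). DJ-1-/- replicate 2 was the highest library for Shmt2, Mthfd1 and Mthfd2, and DJ-1-/- replicate 4 was the highest for Psat1 and the lowest for Phgdh, Shmt1 and Mthfd1l.

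**Figure D3:**
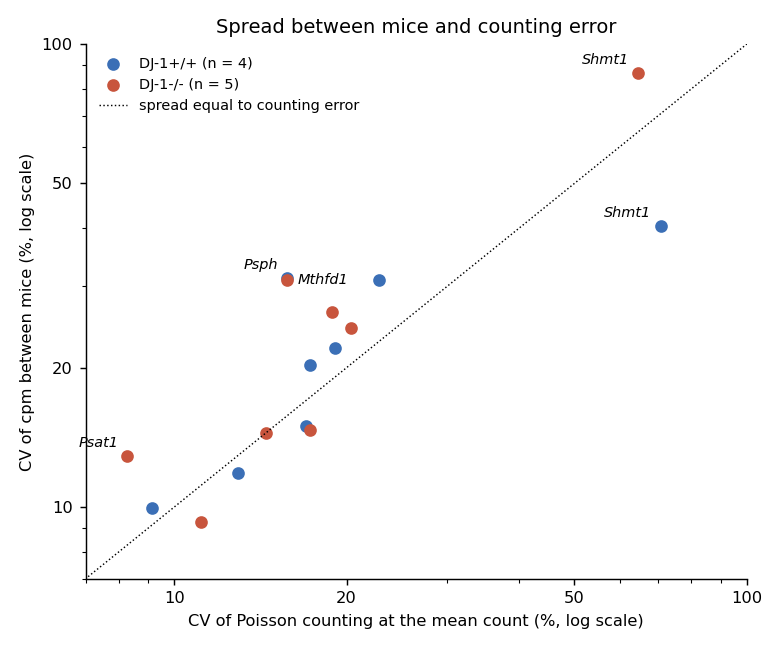
CV of cpm between mice (y axis, log scale, %) against the CV of Poisson counting at the same mean count (x axis, log scale, %) for each of the 8 genes in DJ-1+/+ (blue) and DJ-1-/- (red) midbrain, with names on Shmt1 and on the 3 points above 1.5 times the dotted line of equality. Most points lie near that line, and Shmt1, at a few counts a library, lies far to the right.

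Across the 9 libraries, which share scaling by depth, Pearson's r of log2(cpm + 1) between genes of the pathway had both signs. It was 0.77 for Shmt2 with Mthfd1, 0.70 for Mthfd1 with Mthfd2, -0.56 for Psat1 with Psph and -0.32 for Phgdh with Psat1. Among Psph, Shmt2, Mthfd1 and Mthfd2, grouped after the values were seen, every r was above 0, the lowest 0.41 for Psph with Mthfd1. Counting error can lower r at these counts, so a low r does not show that a pair varied apart. The astrocyte markers, among them Aqp4, Slc1a2 and Aldoc, summed to 2174 to 2491 cpm in DJ-1+/+ and 2187 to 2471 cpm in DJ-1-/- tissue. Of their 12 genes, 0 had an unadjusted p under 0.05 in edgeR (2.83% of all tested genes). An exact permutation p under 0.05 was found for 1, Slc1a2 (3.67% of all tested genes). No relation of Phgdh with the mean level of these markers was found (exact permutation tests over 9 libraries: r = 0.01, p = 0.971; rho = 0.08, p = 0.843). This test cannot decide whether Phgdh follows them. The marker mean spanned only 7.33 to 7.55 in log2(cpm + 1) over the 9 libraries. Poisson counting alone gives Phgdh a CV of 19.1% in DJ-1+/+ and 18.8% in DJ-1-/- libraries, which can hide a relation over that span. Of the 8 genes, Mthfd1 followed the marker mean most closely (r = 0.70, exact permutation p = 0.0365, adjusted over the 8 relations 0.292; rho = 0.80, p = 0.0138, adjusted 0.111), and r was 0.50 without the 2 libraries farthest from the median. No relation passed adjustment, and 9 libraries are few for a correlation.

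The genes whose pattern over the 9 libraries was most like that of each enzyme were picked by Pearson's r of log2(cpm + 1) among 10770 genes with a mean of 20 counts or more. Phgdh was most like Slc23a2 (r = 0.95), Fzd6 and Ctnnd1, and Psat1 most like Rpl22 (r = 0.94), D130017N08Rik and Lsg1. Psph was most like Tcp11l2 (r = 0.95), Ppp2r2b and Fxyd1. Shmt2 was most like Mmgt1 (r = 0.92), Ccdc3 and Ap5s1, and Mthfd1 most like 1810058I24Rik (r = 0.92), Glrb and Srd5a1. Mthfd2 was most like Commd4 (r = 0.97), Skp1a and Ide, and Mthfd1l most like Ufl1 (r = 0.94). Shmt1 was too low to enter, and none of the other 7 enzymes was among the 3 nearest genes of another. With so many genes compared over 9 libraries the top values of r are high by selection. That no enzyme was among them therefore says little about how the enzymes vary together.

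The other enzymes of folate and glycine metabolism showed as little. Of 19 genes, 17 were tested, 9 had an estimate above 0 and 8 below 0, 0 had an unadjusted p under 0.05 in edgeR or an exact permutation p under 0.05, and the median log2 fold change was 0.11 beside 0.01 for all genes. Aldh1l1, the cytosolic formyl-tetrahydrofolate dehydrogenase and an astrocyte marker, had 34.1 to 55.3 cpm in DJ-1+/+ and 36.2 to 59.8 cpm in DJ-1-/- libraries (log2 fold change 0.11, SE 0.18, unadjusted p = 0.557 in edgeR). Its mitochondrial counterpart Aldh1l2 had an estimate of -0.23 (SE 0.26), and Gldc, the decarboxylase of the glycine cleavage system, one of 0.25 (SE 0.43) on 2 to 9 counts a library. The estimates farthest from 0 above were those of Fpgs, which adds glutamates to folate (0.78, SE 0.44, on 3 to 13 counts a library), and Mtfmt, the mitochondrial methionyl-tRNA formyltransferase (0.42, SE 0.27). Mthfs, which returns 5-formyl-tetrahydrofolate to the pool, had the lowest (-0.29, SE 0.27).

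Of 16 genes for the transport of serine and folate and the use of serine, 15 were tested. Estimates were above 0 for 6 and below for 9, with a median of -0.01. In edgeR 1 had an unadjusted p under 0.05, where 2.83% of all tested genes did. That gene was Folr1, a folate receptor of the choroid plexus (unadjusted p = 0.00580, adjusted p = 1.0 in edgeR). It had 5, 0, 1 and 31 counts in DJ-1+/+ and 1, 2, 1, 1 and 0 counts in DJ-1-/- libraries. The 31 counts were those of DJ-1+/+ replicate 4, the library with choroid plexus markers. The DJ-1+/+ mean was 10.5 cpm and that of DJ-1-/- tissue 0.977 cpm, the latter under the level of 3 counts a library, so no fold is given. Without that replicate both genotypes were under 3 counts a library on average and p was 0.258.

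In the methionine cycle and transsulfuration, 10 of 11 genes were tested, 6 with estimates above 0 and 4 below, with a median of 0.04. In edgeR 1 (Ahcyl1) had an unadjusted p under 0.05, where 2.83% of all tested genes did. Ahcyl1, a protein related to S-adenosylhomocysteine hydrolase that binds the IP3 receptor, had 195, 155, 164 and 160 counts in DJ-1+/+ and 241, 247, 215, 213 and 254 counts in DJ-1-/- libraries. As cpm, 176 to 232 in DJ-1+/+ overlapped with 220 to 248 in DJ-1-/- libraries through DJ-1+/+ replicate 1. The log2 fold change was 0.25 (SE 0.09), with p = 0.00996 unadjusted and 1.0 adjusted in edgeR and an exact permutation p of 0.0635. The unadjusted edgeR p stayed under 0.05 as each library was left out (0.000617 to 0.0445). Ahcyl1 was named for its p, so these fits of the same libraries add no independent evidence.

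Atf4 itself, the factor that drives several serine synthesis genes under amino acid stress, had 124, 146, 153 and 178 counts in DJ-1+/+ and 167, 165, 155, 201 and 182 counts in DJ-1-/- libraries. Scaled by depth these were 173 ± 22.5 cpm (SD, n = 4) and 172 ± 22.05 cpm (SD, n = 5), a log2 fold change of -0.01 (SE 0.10, unadjusted p = 0.933 in edgeR). Of 20 genes in the list of ATF4 and its targets, all were tested, 7 had estimates above 0 and 13 below, and the median was -0.04. In edgeR 0 had an unadjusted p under 0.05, where 2.83% of all tested genes did. By exact permutation 1 had p under 0.05, where 3.67% of all tested genes did. It was Vldlr, a lipoprotein and reelin receptor, named after its value was seen. Sesn2, a leucine sensor that restrains mTORC1, was the lowest (-0.49, SE 0.27, unadjusted p = 0.0878) and Wars, the cytosolic tryptophanyl-tRNA synthetase, the highest (0.26, SE 0.16). Nupr1, a stress-induced nuclear protein, had 0.17 (SE 0.34), and Chac1, which breaks down glutathione, -0.16 (SE 0.29).

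**Figure D4:**
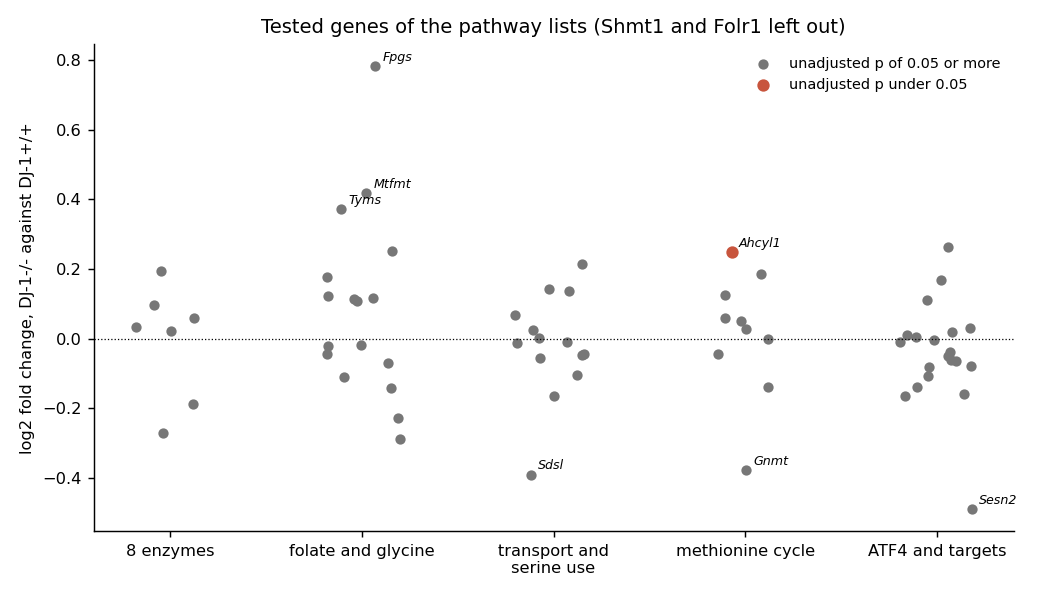
Log2 fold change of DJ-1-/- against DJ-1+/+ midbrain (y axis) for each tested gene of the 8 enzymes and the 4 related lists (x axis, points spread sideways for sight only), without Shmt1 and Folr1, which were near the counting limit. Grey points have an unadjusted edgeR p of 0.05 or more, and the red point is Ahcyl1 at 0.25.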

How the data were processed

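Midbrain RNA of 4 DJ-1+/+ and 5 DJ-1-/- mice was made into 3′ tag libraries with the Lexogen QuantSeq FWD kit. The deposited counts are whole-number UMI counts per Ensembl gene; per the submitters' processing notes, the authors used fastp 0.20.0, STAR 2.7.3a, featureCounts 2.0.0 of Subread and UMI-tools 1.0.0 on GRCm38. The strand setting and the handling of reads with several matches are not given in the sources used here. A gene that a library did not list was taken as 0. Symbols and positions came from GENCODE M21, which held 26576 of the 26602 gene IDs, and promoters from RefSeq (GRCm38.p6).

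Groups and replicate numbers were taken from the sample titles. A total of 10 counts, summed over all libraries, was required of a gene (18127 genes), and these were tested with edgeR 4.0.16 (quasi-likelihood, TMM, genotype as the sole term, R 4.3.3), with Benjamini-Hochberg adjustment over all of them. SE is the log2 fold change divided by the root of F. Mean cpm was compared with exact two-sided permutation tests, unadjusted, by a routine in numpy 2.4.6 that was checked against scipy 1.17.1 on random numbers. P-values for the genotypes judge a difference in means against the spread between these mice, and counting limits cover counting error only. Alternatives were DESeq2 1.42.0, RLE and total scaling, no filter or at least 45 counts, Xist as a covariate, thinned counts, a replicate block and each library left out. 3 more were chosen after seeing the data: leaving out DJ-1+/+ replicates 1 and 4 together, the 6 libraries with high Xist, and replicates 1 to 4 with no block.

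On simulated counts for 18127 genes, 17827 were tested in the comparison of DJ-1-/- with DJ-1+/+. There edgeR recovered 195 of the 200 altered genes (a log2 change of 1), with 7 false calls. The altered genes were drawn from those with a mean of 20 counts or more, and all genes had the same dispersion. The simulation therefore does not give the power to find changes as small as the estimates of the enzymes. Named genes were the 8 enzymes, Park7, Mthfd2l, Aldh1l1, Aldh1l2, Gldc and Atf4, of each other pathway list those with an unadjusted p under 0.05 or else the 2 highest and 2 lowest estimates at a mean of 5 counts or more, and the 3 genes nearest in pattern to each enzyme, of which some for Mthfd1l are not reported here. The enzymes and the lists were chosen with earlier results of these data known.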

Additional observations from a re-analysis of the deposited data

Results flagged for a closer look

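Mthfd1l in DJ-1-/- replicate 4 stood at 24.8 cpm, far below the other 4 DJ-1-/- libraries (33.7 to 37.0 cpm) for the range of its group by Dixon's test. Without that library the log2 fold change of Mthfd1l was -0.20 (SE 0.16) in place of -0.27. Of 18 groups of values examined, 1 was singled out in this way, where chance gives about 0.9 (1 in 20).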

How the results depend on the processing

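Over the 140 alternative fits of the 7 enzyme genes above the counting limit, 0 gave an unadjusted p under 0.05 in edgeR or DESeq2 (the smallest was 0.0690), and 11 turned the sign of an estimate. Psat1 turned to -0.042 without DJ-1+/+ replicates 1 and 4 and to -0.055 in the 6 libraries with high Xist. As each library was left out, the log2 fold change ran from -0.011 to 0.13 for Psat1, -0.085 to 0.25 for Psph, -0.11 to 0.24 for Shmt2 and -0.17 to 0.13 for Mthfd1, and the difference in mean cpm (DJ-1-/- minus DJ-1+/+) from -0.171 to 12.8, -2.88 to 7.65, -1.80 to 3.54 and -4.43 to 3.24. For Mthfd1l that difference ran from -8.37 to -3.96 cpm. The number of enzyme genes with an exact permutation p under 0.05 was 0 to 1, the 1 being Mthfd1l without DJ-1+/+ replicate 1 (-8.37 cpm, exact permutation p = 0.0357).

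Over all genes, 513 had an unadjusted p under 0.05 in edgeR, 235 in DESeq2 and 802 with no filter on low counts, and 338 to 732 as each library was left out, the lowest without DJ-1-/- replicate 2. At an adjusted p under 0.05 there was 1 gene, 36 with no filter, 3 in the libraries with high Xist and 1 to 2 as each library was left out. With the replicate number as a block (replicates 1 to 4) it was 8 genes, and 1 in the same libraries with no block. Deviations from the genotype means correlated at 0.29, 0.06, -0.12 and -0.20 for replicates 1 to 4, and of the 4 only replicate 1 correlated best with its own number, so the numbers were not taken to pair mice.

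As each library was left out, the number of genes with an unadjusted edgeR p under 0.05 was 0 to 1 for folate and glycine enzymes (Mtfmt without DJ-1+/+ replicate 4), 0 to 1 for transport (Folr1 lost without DJ-1+/+ replicate 4), 1 for the methionine cycle and 0 to 2 for ATF4 and its targets (Sesn2 without DJ-1+/+ replicate 3, Sesn2 and Wars without DJ-1-/- replicate 4, and Slc7a11 without DJ-1-/- replicate 5). With the replicate block, Slc7a11 was below 0.05 as well, and without DJ-1+/+ replicates 1 and 4 so was Gldc. The cause of these shifts was not tested. Depth limits these results: 6 of the 8 enzyme genes averaged under 50 counts a library.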
